A study of Mus musculus with 9 samples.

Results

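Glioma tissue with EZH2 knocked out was compared with normal astrocytes across all measured genes of the mouse. The comparison used 5 of the 9 arrays of the study: 3 tissue arrays and 2 astrocyte arrays, chosen by their titles. The array carried probes for 34657 genes, and 24447 of them were tested. A gene entered the test if a probe of it stood well above background on all arrays of at least 1 of these groups.

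The tissue was brain tumor from mice of the MADM background with the genotype EZH2 knocked-out. MADM stands for mosaic analysis with double markers, a method in which recombination between homologous chromosomes leaves rare labelled mutant cells in an otherwise normal animal. The astrocytes were wild-type cells of normal C57BL/6J brain. The other groups of the study were glioma cells of the MADM background (2 arrays), with no Ezh2 genotype named, and wild-type C57BL/6J neural stem cells (2 arrays). The labels give no age, no promoter or Cre line, no method by which the astrocytes were isolated, and no word on which part of Ezh2 was deleted or in which cells. Nor do they tell whether the samples of 1 group are different animals or cultures, so p-values measure the spread between these samples only. Part of that spread may be technical, but sex-linked transcripts, given below, differed between arrays of both groups. Tissue RNA is a mixture of tumour cells and every other cell of the tumour and the surrounding brain.

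EZH2 is the catalytic subunit of Polycomb repressive complex 2 (PRC2), which places methyl groups on lysine 27 of histone H3 and keeps developmental genes silent. EED and SUZ12 are the partners without which EZH2 is not active, and EZH1 is its paralogue. In gliomas of the published MADM model the mutant cells lack Trp53 and Nf1, and the tumours resemble oligodendrocyte precursor cells, the dividing cells from which oligodendrocytes are made. Astrocytes are the glial cells that take up glutamate, line blood vessels with their endfeet and turn reactive after injury.

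Levels are log2 processed signals with the 75th percentile of each array set to 0, so a level can be compared between arrays for 1 gene but not between genes. Each sample was labelled from 200 ng of RNA. Between 60.1% and 65.7% of spots on an array were well above background, and no spot was saturated. All 3 tissue arrays lay on 1 slide and were scanned together, and all 6 cell arrays lay on another slide. Tissue, genotype, slide and scan therefore cannot be told apart, and no fit with the slide as a block can be had. The root mean square difference between arrays was 0.80 to 0.89 among tissue pairs and 0.98 between the astrocyte arrays. It was 1.68 to 1.89 between a tissue and an astrocyte array.

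Calls needed both an adjusted p (limma, Benjamini-Hochberg) under 0.05 and a difference of 2-fold or more. In the EZH2-KO tissue 2643 genes were higher than in astrocytes and 3195 were lower, together 5838 genes or 23.9% of those tested. The share called higher was 10.8% and the share called lower 13.1%, and the counts of list members below are read against these. The 2 groups did not overlap in 58.9% of all genes tested, so a gap between 3 and 2 arrays is common here. The median difference over all genes tested was -0.08. Differences exceeded 10-fold in 1503 called genes, of which 929 were higher and 574 lower in the tissue. Without astrocyte array 1 the count of called genes was 3415, and without astrocyte array 2 it was 3305. Against glioma cells 19.2% of genes tested were called (8.26% higher and 10.9% lower in the tissue), and against neural stem cells 19.9% (8.42% and 11.5%). Those comparisons share the tissue arrays with this one. Higher genes made up 45.3% of the calls, but 34.6% (2195 higher and 4153 lower) when arrays were centred on their medians, which moved the median of all genes to -0.27.

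Marker genes showed what each side contained. Both astrocyte arrays had high levels of the astrocyte enzyme Aldh1l1 (6.55 and 5.28), of the water channel Aqp4 (6.18 and 4.40) and of the intermediate filament Gfap (6.22 and 3.71). Microglial genes were also present in them: the macrophage receptor Csf1r stood at 5.19 and 5.62, close to the tissue's 4.95, 5.55 and 4.67. Fibroblast and meningeal markers set the astrocyte arrays apart, with a mean list level of -1.46 on array 1 and 3.47 on array 2. Decorin (Dcn), a matrix proteoglycan, was at -0.98 and 6.52. Among the tissue arrays, array 2 stood apart in choroid plexus and ependymal markers, with a mean list level of -0.09 against -3.64 on array 1 and -3.86 on array 3. Transthyretin (Ttr), the main secreted protein of choroid plexus, was at 5.67 on tissue array 2, -3.05 on array 1 and -5.68 on array 3.

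Sex-linked transcripts also differed within groups. The Y-linked helicase gene Ddx3y was at -7.48 on tissue array 1 and not well above background there, against 0.07 on tissue array 2 and -1.75 on tissue array 3. On the astrocyte arrays it was at -5.96 and 1.16. Xist, the RNA of the inactive X chromosome, was at 0.19 on tissue array 1 and at -7.61 and -7.73 on the other tissue arrays. On the astrocyte arrays Xist was at 1.31 and -0.86, well above background on both. The arrays of each group were therefore not all repeats of 1 RNA sample. Whether tissue arrays 2 and 3 came from different animals was not tested. The plot of marker levels gives all 12 marker lists on each array.

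**Figure D1:**
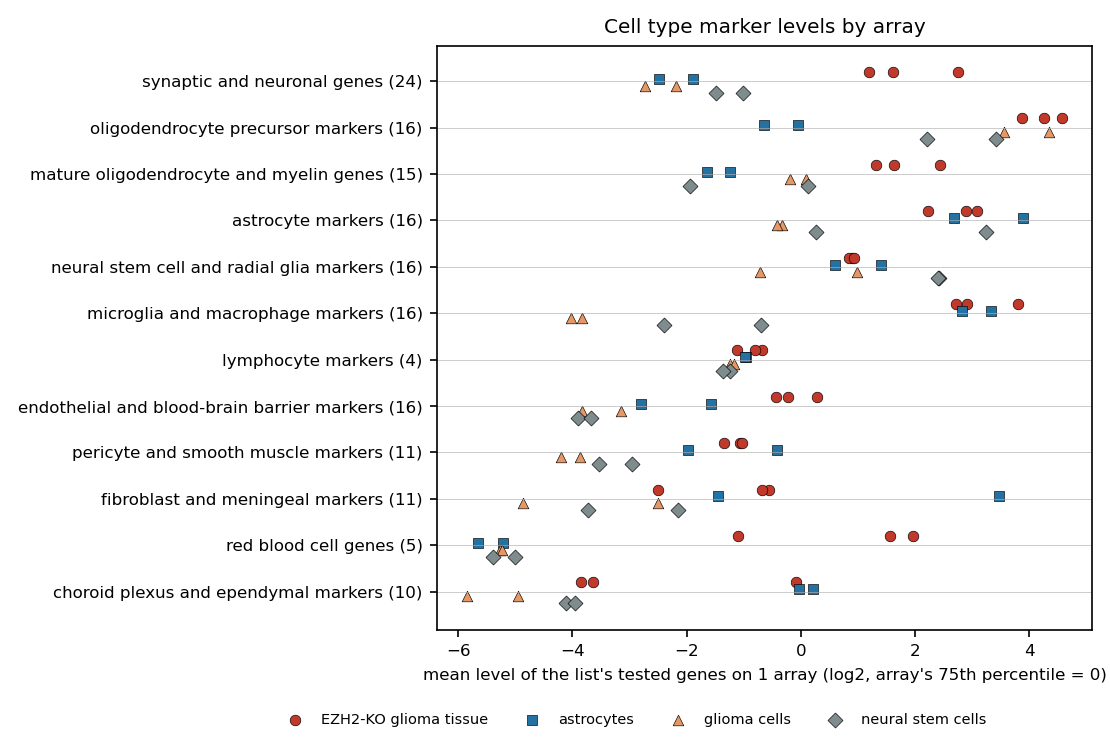
Mean level (log2, 75th percentile of the array set to 0) of the tested genes of 12 cell type marker lists; each symbol is 1 array, coloured by group, and the number of tested genes stands after each list name. Red blood cell, neuronal and oligodendrocyte precursor genes lie higher on all 3 tissue arrays than on both astrocyte arrays, microglial genes lie at like levels in both groups, and fibroblast genes stand at 3.47 on 1 astrocyte array.

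Ezh2 itself was higher in the EZH2-KO tissue than in wild-type astrocytes. Its level was 1.70, 1.40 and 1.30 on the tissue arrays and -0.001 and -0.78 on the astrocyte arrays. The difference was 1.86 ± 0.41 (SE) on the log2 scale, 3.63-fold, with an adjusted p of 0.017 in limma, and the call was lost without astrocyte array 2, where the adjusted p reached 0.11. In glioma cells Ezh2 was at 2.87 and 3.08, above every tissue array, and the tissue was lower than those cells (log2 difference -1.51, adjusted p = 0.040 in limma). Neural stem cells, at 1.98 and 3.21, also lay above the tissue arrays, without passing the test (adjusted p = 0.091). The array carried 1 probe for Ezh2, at chromosome 6, 47480307 to 47480366 (mm9, minus strand). Since the labels do not say which exons were deleted, this probe does not check the deletion. In bulk tissue, fewer cells of a type and less RNA per cell cannot be told apart, here and in every list below.

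The other genes of the PRC2 list were called in 1 direction only. Of 14 tested genes for PRC2 subunits and the demethylases that remove the mark, 3 were higher and none lower, with a median of 0.64 (0.98 without astrocyte array 1). Besides Ezh2 these were Epop, a PRC2 accessory factor that binds elongin, at 1.41, 1.04 and 0.97 against 0.04 and -1.01, and Mtf2, which brings PRC2 to CpG-rich DNA, at 1.88, 1.99 and 1.67 against 0.78 and 0.51. The differences were 1.63 ± 0.36 (adjusted p = 0.017) and 1.20 ± 0.24 (adjusted p = 0.012) in limma. Without astrocyte array 2 none of the 3 was called. Centring on medians left 3 higher and added 2 lower calls. The core partners did not pass: Eed was at 2.34, 1.85 and 1.96 against 2.90 and 3.14, and Suz12 at 0.65, 1.18 and 1.45 against 0.17 and 0.31. Their differences were -0.97 (adjusted p = 0.079) and 0.86 (adjusted p = 0.099). Ezh1 differed by -0.13, less than its standard error of 0.44, and its sign depended on the scaling. The demethylase genes Kdm6a (0.45) and Kdm6b (0.34) were not called either.

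PRC1, the second Polycomb complex, reads the PRC2 mark and ubiquitinates histone H2A. Its list had 18 tested genes, of which 2 were higher and 1 lower, with a median of 0.06, which turned to -0.21 without astrocyte array 1, -0.13 with median centring and -0.007 with normexp. The lower one was Cbx8, a chromodomain subunit that binds the methylated histone. It was at -3.51, -4.09 and -2.73 in the tissue against -0.61 and -0.87 in astrocytes, a difference of -2.71 ± 0.39 (adjusted p = 0.0035 in limma). The tissue was also lower than the glioma cells (-0.33 and -0.23) and the neural stem cells (-0.60 and -0.63), and both differences were called. All 6 cell arrays lay within 1 log2 unit of each other for this gene, and all 3 tissue arrays lay below them. The higher genes were Phc1, a scaffold subunit (1.08), and Kdm2b, which recruits a variant complex to CpG islands (1.23). Their other probes did not all follow: those of Kdm2b differed by -2.10 and 1.84, and that of Phc1 by 0.20. Phc1 lost its call without astrocyte array 2, tissue array 2 or tissue array 3, and Kdm2b without either astrocyte array, tissue array 1 or tissue array 3. Of these 2, neither was called when arrays were centred on medians.

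**Figure D2:**
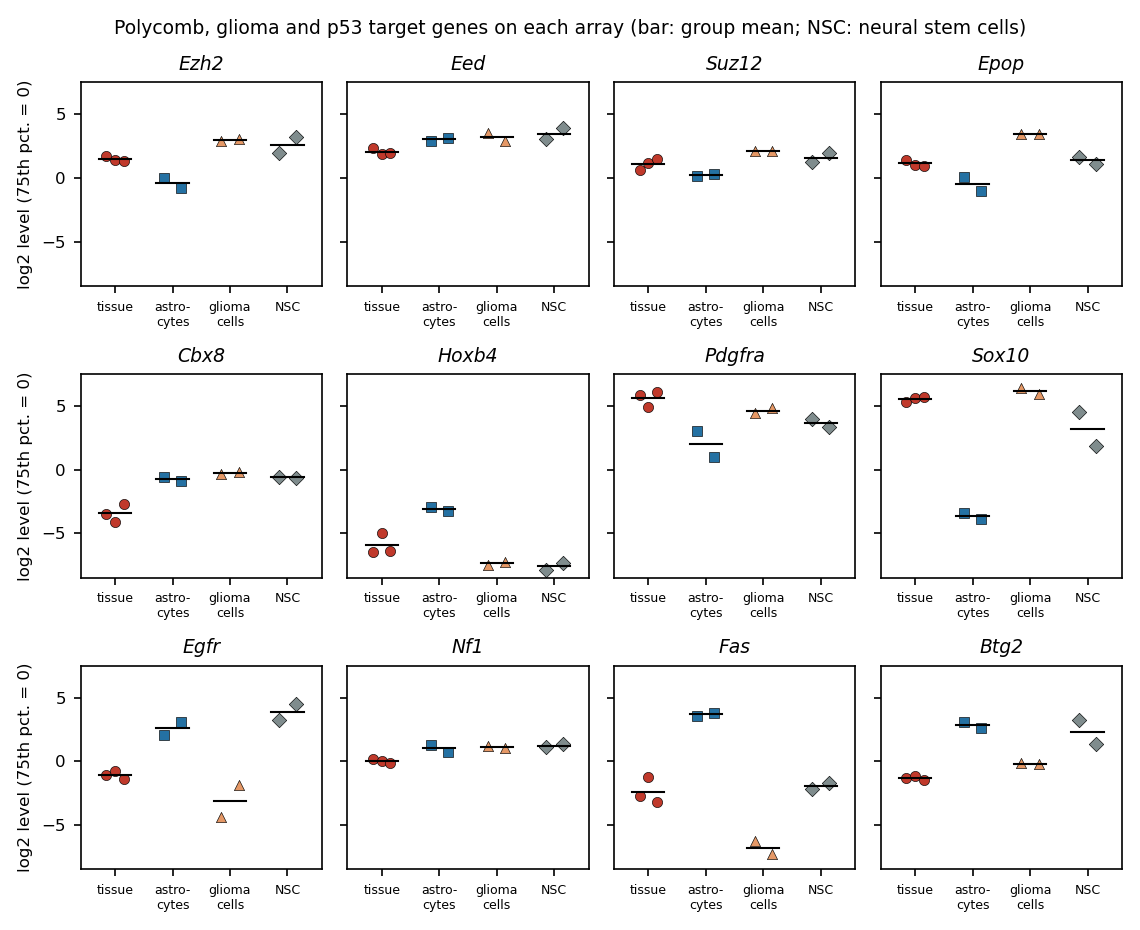
Level (log2, 75th percentile of the array set to 0) of 12 genes on each of the 9 arrays, by group; symbols are arrays and bars are group means. Ezh2 lies higher in the tissue than in astrocytes and lower than in glioma cells, Cbx8 is lowest in the tissue, and Sox10 and Pdgfra lie high in both tumour groups.

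The Hox list and the list of other Polycomb targets hold developmental genes that PRC2 keeps silent in most tissues. No gene of these lists was called higher in the EZH2-KO tissue than in astrocytes. They do not hold all developmental factors: Sox10 and Sox3, in other lists below, were called higher. Hox genes set position along the body axis. Only 12 of 39 were tested, since the others were not well above background on all arrays of either group. None was called higher and 2 were lower, Hoxb2 and Hoxb4, while the median over the 12 was 1.36, the opposite sign. Both lower genes entered the test only through the astrocytes, and a stricter filter left 6 Hox genes and no lower call. The median was 0.58 and 0.44 without astrocyte arrays 1 and 2, 0.85 without tissue array 3 and 0.25 with no filter. Hoxb4 was at -6.47, -4.98 and -6.39 in the tissue against -2.95 and -3.26 in astrocytes, a difference of -2.84 ± 0.47 (adjusted p = 0.0059 in limma). Hoxb2 was not well above background on any tissue array and was at least 6.05-fold lower. Without astrocyte array 1, only 1 of the 2 was called. Genes of the Hoxa cluster lay the other way without passing. Hoxa5 was at -5.16, -2.21 and -0.55 against -5.40 and -6.98, a difference of 3.56 (adjusted p = 0.065), and the tissue arrays differed among themselves by more than that. In glioma cells Hoxa5 was at -0.64 and 0.22. Without tissue array 1, 3 Hox genes were called higher and 3 lower.

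Of 25 other tested Polycomb target genes, transcription factors of development, none was higher and 8 were lower, with a median of -1.56 (-1.40 with 6 genes not well above background in the tissue set at their bounds). A stricter filter, which drops such genes, left 1 call and a median of -0.32. The median was -0.40 with normexp, -0.45 with no filter and -0.94 with a filter on any group. With normexp, with no filter or with quantile normalization 1 gene was called higher. Pax3, a factor of neural crest and dorsal neural tube, was at -5.53, -6.01 and -6.49 in the tissue, not well above background, against 2.88 and -0.29 in astrocytes. It was at least 140-fold lower (adjusted p = 0.0017 in limma) and entered the test only through the astrocytes. In glioma cells Pax3 was at -4.35 and -5.29, and in neural stem cells at -4.80 and -4.71. Foxc1, a factor of the meninges, was at -1.75, -1.05 and -1.94 against 1.23 and 3.39 in astrocytes, a difference of -3.89 ± 0.68 (adjusted p = 0.007). Twist1 and Foxc2, both mesodermal factors, were lower by -5.87 and -5.49. Twist1 lost its call without either astrocyte array, tissue array 1 or tissue array 3, and Foxc2 without astrocyte array 2, tissue array 1 or tissue array 3. The kidney and mesothelial factor Wt1 was at least 12.9-fold lower, a call lost without either astrocyte array. Several of these factors are known from meninges and mesenchyme, and the fibroblast list was high on astrocyte array 2; its part in the result was not tested. Without that array 4 genes were lower and 2 higher, with a median of -0.95. Without tissue array 1, 5 were lower and 1 higher (median -0.82), and without tissue array 3 the median was -0.68. The tumour suppressor locus Cdkn2a, a classical Polycomb target, was at 3.29, 4.48 and 4.70 in the tissue and 4.14 and 4.40 in astrocytes, a difference of -0.12 ± 0.75. It was at -1.81 and 0.83 in neural stem cells, where the tissue was higher and the difference was called.

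Genes of the oligodendrocyte precursor cell were higher in the tissue than in astrocytes. Of 16 tested markers 13 were higher and none lower, with a median of 3.50. There were 10 calls without tissue array 1 or tissue array 3, and 9 with the replicate number as a block. All 16 were above both astrocyte arrays on all 3 tissue arrays, while 58.9% of all genes tested did not overlap in either direction. Gpr17, a receptor of committed precursors, was at 6.13, 6.88 and 6.25 in the tissue and not well above background, at -6.67 and -7.30, in astrocytes, at least 4703-fold higher (adjusted p = 5.8e-04 in limma). Sox10, the transcription factor of the lineage, was at 5.30, 5.60 and 5.68 against -3.38 and -3.91, a difference of 9.17 ± 0.69 (adjusted p = 4.9e-04). The proteoglycan Cspg4, which defines these cells as NG2 glia, was at 4.31, 4.29 and 5.20 against -1.79 and -0.0019. Pdgfra, the receptor through which PDGF drives precursor division, was at 5.87, 4.92 and 6.10 against 3.03 and 1.00, a difference of 3.62 ± 0.62 (adjusted p = 0.0067). Olig2, needed for both precursors and glioma growth, was at 3.97, 2.98 and 4.26 against 0.03 and -0.33. The factors Olig1 (3.23) and Nkx2-2 (3.38) and the membrane gene Lhfpl3 (7.20) were also called. Against glioma cells none of the 16 markers was called in either direction in limma and 1 had an unadjusted p under 0.05, and against neural stem cells 3 were higher.

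Genes of mature, myelinating oligodendrocytes were split. Of 15 tested genes 6 were higher and none lower, with a median of 2.45. The myelin adhesion protein Mag was at 2.83, 4.74 and 3.07 against -2.48 and -2.59, a difference of 6.08 ± 1.34 (adjusted p = 0.016 in limma). Mag lost its call without either astrocyte array. Mobp, a late myelin gene, was at least 193-fold higher than in astrocytes and was also called against glioma cells and neural stem cells. The myelin lipid enzymes Fa2h (at least 115-fold) and Ugt8a (7.31 ± 0.67) were higher as well. Mag and Mobp were both highest on tissue array 2. Mbp, the basic protein of compact myelin, was at 2.95, 2.41 and 3.095 against 0.94 and -0.20 and did not pass (adjusted p = 0.058). A stricter filter left 2 calls and a median of 1.49. Mog, on the outer myelin surface, differed by 1.04 and did not pass either.

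Synaptic and neuronal genes were higher in the tissue. Of 24 tested genes 17 were higher and none lower, with a median of 3.75 (3.43 with bounds in place of fitted values), and 6 were not well above background on either astrocyte array. The GABA-making enzyme Gad2 was at 2.32, 0.72 and 1.11 against -5.87 and -5.84, at least 143-fold higher (adjusted p = 3.4e-04 in limma). Slc17a7, the vesicular glutamate transporter of cortical neurons, was at 0.90, -0.39 and -1.49 against -7.22 and -7.53, at least 43.9-fold higher. The NMDA receptor subunit Grin1 differed by 4.65 ± 0.43 (adjusted p = 8.7e-04) and the synaptic vesicle protein Syp by 2.61 ± 0.39 (adjusted p = 0.0041). The probes for Slc32a1, the vesicular GABA transporter, disagreed in size: the brighter one was not well above background in astrocytes and differed by 11.18, while the other was well above background in astrocytes and differed by 1.096. Tissue array 1 had the highest level of each of these 5 genes, and its mean list level was 2.76 against 1.62 and 1.20 on the others. The list was also higher than in glioma cells, with 17 of 24 genes called, and than in neural stem cells, with 14. A stricter filter, which tests fewer genes, left 9 calls. Stmn2, a growth cone protein, went against the list: it was at 4.10, 2.31 and 1.25 against 4.34 and 2.49, and it was not called.

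Blood and vessel genes were higher too. Red blood cell genes were called higher in 4 of 5 tested genes, with a median of 7.68 (6.97 with bounds). The haemoglobin gene Hba-a2 was at 6.34, 2.71 and 5.77 in the tissue against -3.70 and -2.39, a difference of 7.99 ± 1.01 (adjusted p = 0.0023 in limma). Globin genes lie in near-identical pairs, so probes may not tell the copies apart. Tissue array 2 was lowest for all 4. Of 16 endothelial markers 6 were higher and 1 lower, with a median of 1.53. Cldn5, the tight junction protein of the blood-brain barrier, was at 2.91, 3.13 and 2.05 against -6.95 and -6.16, at least 357-fold higher (adjusted p = 2.8e-04). Tie1, an endothelial receptor, was at least 10.6-fold higher, and the efflux pump Abcb1a differed by 3.35. The anion transporter Slco1a4 was the lower one, at -0.78, -0.28 and -0.84 against 0.69 and 1.02, and it lost its call without astrocyte array 2. Without astrocyte array 1 or tissue array 2, 2 endothelial markers were lower. The endothelial median was 0.77 without astrocyte array 1, 3.08 without astrocyte array 2 and 0.97 with normexp. The stricter filter left 2 higher endothelial markers (median 0.26) and 1 higher red blood cell gene (median 4.11), and normexp gave a red blood cell median of 4.88.

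Mural cells of vessels gave a mixed list, with 4 genes higher and 3 lower of 11 tested and a median of -0.16. The sign of that median was not stable: it was 0.56 without tissue array 2, -0.52 without tissue array 3, 0.63 with no filter and 0.03 with means over probes. A stricter filter left 1 higher gene and a median of -2.97. The pericyte genes Rgs5 (-0.31, -0.14 and -0.14 against -5.72 and -5.92, at least 47.2-fold higher) and Abcc9 (at least 9.54-fold higher) were higher. Des, a muscle filament, was at least 5.17-fold higher but not without either astrocyte array, and Cspg4 is shared with the precursor list. The contractile genes Cnn1, Acta2 and Tagln were lower. Cnn1 was at -1.76, -2.05 and -4.81 against 2.96 and 5.005, a difference of -6.86 ± 0.98 (adjusted p = 0.0034 in limma). For Acta2 and Tagln the highest value was on astrocyte array 2, at 7.03 and 7.63, and both lost their call without it, Tagln also without any 1 tissue array. Without astrocyte array 2 1 of the 3 remained lower. The fibroblast markers, high on the same array, moved with them, and their part in the result was not tested.

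**Figure D3:**
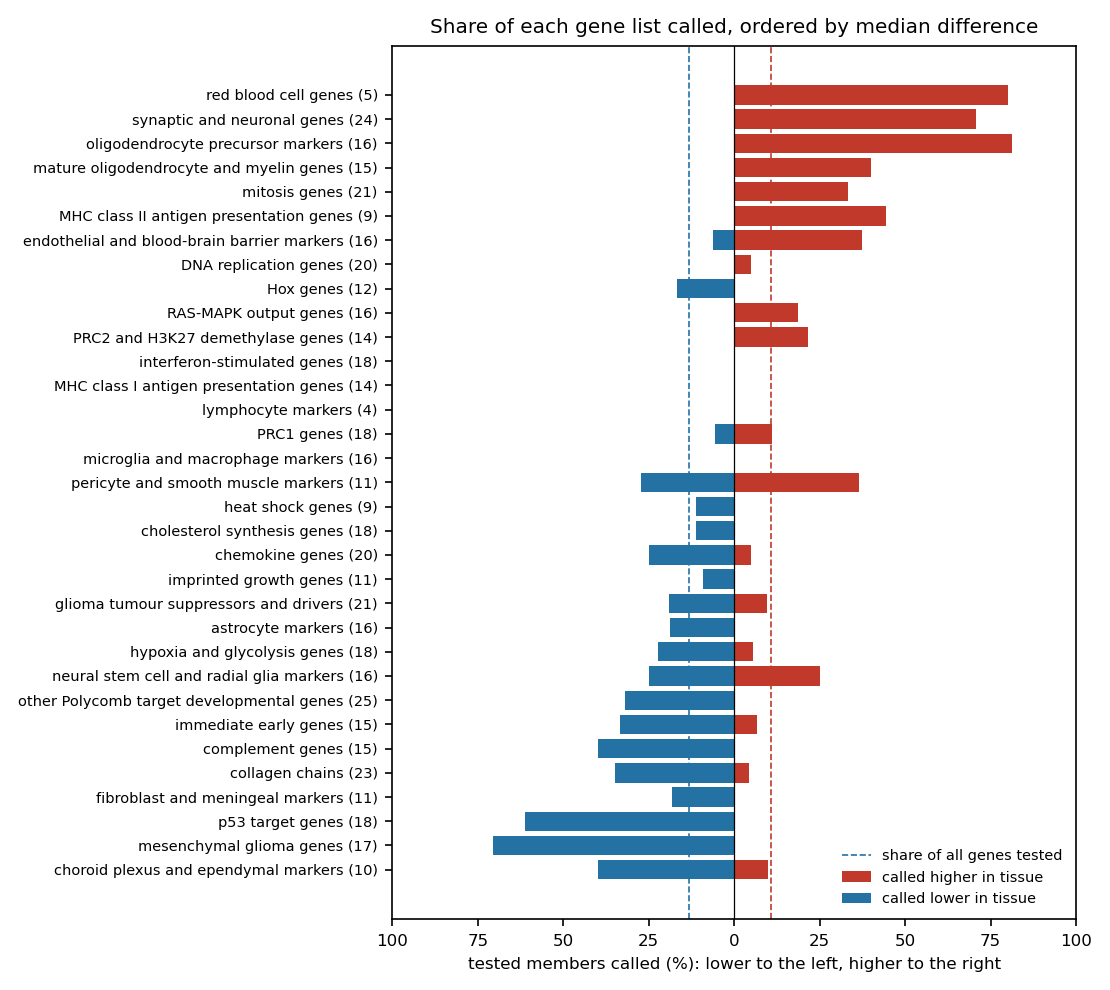
Share of the tested members of 33 gene lists called higher (to the right) or lower (to the left) in the tissue than in astrocytes, ordered by the list's median difference; the number of tested members stands after each name. Dashed lines mark the shares over all genes tested, 10.8% higher and 13.1% lower.

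Astrocyte markers were still present in the tissue, and few were called. Of 16 tested markers 3 were lower and none higher, with a median of -0.64. The sign of that median rested on astrocyte array 1: it was 0.18 without that array and -1.64 without astrocyte array 2. Gja1, the gap junction protein connexin 43, was at -1.95, -2.19 and -3.17 against 0.58 and 1.98, a difference of -3.71 ± 0.68 (adjusted p = 0.0084 in limma). Aldh1l1 was at 2.93, 3.55 and 1.73 against 6.55 and 5.28, a difference of -3.18 ± 0.77 (adjusted p = 0.022). Gja1 lost its call without astrocyte array 2, and Aldh1l1 without astrocyte array 1, tissue array 1 or tissue array 3. Sox9, a glial transcription factor, was at 1.14, 1.40 and 0.43 against 3.19 and 3.32 and was lower in every such fit. Gfap did not differ beyond its spread: it was at 3.21, 4.34 and 1.98 in the tissue against 6.22 and 3.71, a difference of -1.79 ± 2.21. The glutamate transporter Slc1a2 was at 2.35, 2.52 and 1.68 against 1.59 and -0.12 and was not called. Against glioma cells 8 of the 16 markers were higher in the tissue, among them Aldh1l1, which was at -3.36 and -2.96 in those cells.

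Neural stem cell and radial glia genes went both ways, with 4 higher and 4 lower of 16 and a median of -0.93. The Notch pathway genes Hes5 (5.32, 5.11 and 3.99 against 0.90 and -2.92) and Dll1 (0.34, 0.27 and 0.55 against -3.04 and -4.09) were higher by 5.82 ± 1.14 and 3.95 ± 0.43. The progenitor factor Sox3 was higher by 6.05 ± 0.89 (adjusted p = 0.0039 in limma). Lower genes were Egfr, the receptor of epidermal growth factor, the stem cell factors Sox1 (-3.04) and Nr2e1 (-2.54), and the filament protein Vim (-1.94), whose call was lost without either astrocyte array. Egfr was at -1.09, -0.73 and -1.39 against 2.04 and 3.11, a difference of -3.65 ± 0.75 (adjusted p = 0.013), and was not called without astrocyte array 2. In that fit 2 of the genes on the list were lower, with a median of -1.46. Of the list, Egfr, Sox1 and Nr2e1 were also lower than in neural stem cells, and none was higher.

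Microglia and macrophage markers did not separate the tissue from the astrocytes. None of the 16 was called in either direction in limma, 2 had an unadjusted p under 0.05, and the median difference was -0.02, a value near 0 whose sign depended on the setting. Without astrocyte array 2, 1 was higher (median 0.27), and with normexp 1 was higher and 1 lower. The complement gene C1qa was at 3.85, 5.24 and 3.65 in the tissue and 3.73 and 4.27 in astrocytes. Aif1, the macrophage protein Iba1, was at 3.57, 4.02 and 3.11 against 3.75 and 3.41. The groups overlapped for both. The homeostatic microglial genes Tmem119 (1.49, adjusted p = 0.068 in limma) and P2ry12 (1.55, adjusted p = 0.21) lay above the astrocyte arrays on all tissue arrays without passing. The largest difference of the list went the other way. Adgre1 was at -0.03, 0.59 and -0.40 against 1.32 and 2.65, a difference of -1.93 (adjusted p = 0.099 in limma). A second Adgre1 probe differed by -1.61. Against glioma cells 14 of the 16 markers were higher in the tissue, and against neural stem cells 15. Aif1 was not well above background in glioma cells, at -7.65 and -7.44. The mean list level was 2.72 to 3.82 in the tissue and 2.82 and 3.33 in astrocytes. Of 14 lymphocyte markers only 4 were tested, and none was called in limma or had an unadjusted p under 0.05; their median was 0.22.

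Interferon-stimulated genes also had no call against astrocytes. None of 18 was called against astrocytes in limma and 1 had an unadjusted p under 0.05, with a median of 0.58, while 14 were higher than in glioma cells and 17 higher than in neural stem cells. In the fit without astrocyte array 1, 2 genes were higher and the median was 1.46. The median was -0.32 without astrocyte array 2, 0.03 without tissue array 2 and 0.93 without tissue array 3. Irf7, an amplifier of the interferon response, was at 0.64, 5.98 and -0.14 in the tissue and 0.47 and -1.56 in astrocytes. Only tissue array 2 was high. The 14 class I antigen presentation genes had no call against astrocytes in limma either, with 4 at an unadjusted p under 0.05 and a median of 0.30 (0.63 without astrocyte array 1). Class II genes, used by antigen-presenting cells, were higher in 4 of 9, with a median of 2.21. H2-Eb1 was at -0.24, 2.41 and 0.48 against -3.46 and -2.42, a difference of 3.82 ± 0.81 (adjusted p = 0.014 in limma), and Cd74, the invariant chain, differed by 2.21 ± 0.55. H2-Eb1 lost its call without astrocyte array 1, and Cd74 without either astrocyte array or tissue array 3. Without astrocyte array 1 only 1 class II gene was called, and without astrocyte array 2, or under the stricter filter (median 1.16), there were 2.

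Complement genes were lower in the tissue than in astrocytes, in 6 of 15 tested genes, with none higher and a median of -1.65. Against glioma cells 11 of the 15 were higher in the tissue and none lower, and against neural stem cells 8 were higher and none lower. C3, the central complement component and a marker of reactive astrocytes, was at 0.43, 0.55 and 0.55 in the tissue against 6.89 and 5.68 in astrocytes. The difference was -5.77 ± 0.36 (adjusted p = 2.8e-04 in limma), and C3 was at -0.63 to -0.27 on the other 4 arrays. The protease C1ra (-4.06 ± 0.50) and its inhibitor Serping1 (-3.98 ± 0.57) were lower as well. The microglial C1q genes C1qa, C1qb and C1qc were not called. Without astrocyte array 2 or without tissue array 1 the list had 3 lower genes. Chemokine genes were lower than in astrocytes in 5 of 20 and higher in 1, with a median of -0.38. Against glioma cells 12 of 18 were higher in the tissue and none lower, and against neural stem cells 14 of 18 and none. The neutrophil attractant Cxcl5 was at -4.13, -2.87 and -3.51 against 1.38 and -0.38 in astrocytes. The monocyte attractant Ccl7 was at -2.65, -2.94 and -4.59 against 0.92 and 0.08. Ccl7 lost its call without either astrocyte array, tissue array 2 or tissue array 3, and Cxcl5 without astrocyte array 1. The list had 3 lower genes without either astrocyte array or tissue array 3. The higher gene was Ccl6, made by macrophages (1.72 ± 0.35), which was not called without astrocyte array 1.

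Mitosis genes were higher in the tissue than in astrocytes and lay below the glioma cells. Of 21 tested genes 7 were higher and none lower, with a median of 2.45 (2.39 with Cenpf at its bound). The groups did not overlap in 20 of the 21, against 58.9% of all genes tested. Ccnb1, cyclin B1, was at 2.82, 2.91 and 2.35 against -1.18 and -0.48, a difference of 3.52 ± 0.81 (adjusted p = 0.019 in limma). Ube2c, which starts the destruction of cyclins, was at 3.31, 2.62 and 2.73 against -1.78 and 0.45. Top2a, the topoisomerase that untangles sister chromatids, was at 0.97, 1.52 and 1.42 against -1.97 and -1.08, with an adjusted p of 0.049. Mki67, the proliferation marker Ki-67, was at 2.93, 3.05 and 2.81 against 0.15 and 0.82 and did not pass (adjusted p = 0.052). Cdk1, the kinase partner of cyclin B, did not follow the list at -0.87, -1.09 and -1.03 against -1.13 and -0.35, although a second probe of it differed by 1.51. No mitosis gene was called without astrocyte array 1, without tissue array 1 there was 1, and without any other array of the pair of groups there were 2. The unscaled deposited table gave 14 calls, a fit of the 5 arrays alone 17 and no filter 3. The main fit pooled the spread of all 9 arrays, and the neural stem cell arrays differed from each other. Their mean list levels were 0.71 and 3.68 for mitosis genes and 0.43 and 3.65 for DNA replication genes. The part of this spread in the number of calls was not tested. In glioma cells Mki67 was at 5.74 and 5.50, and the tissue was lower (log2 difference -2.69); 4 of the 21 genes were called lower than in those cells. DNA replication genes had 1 call of 20, Ticrr, and a median of 1.502; that call was lost without any 1 of the 5 arrays, and the fit of 5 arrays alone gave 10 calls.

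Mitosis genes are known to share promoter elements, CCAAT boxes bound by NF-Y and the cell cycle homology region TTTGAA. RefSeq promoters (GRCm38.p6, 250 bases before to 50 after each start) were found for 18 of the 21 tested genes and 6 of the 7 called. CCAAT was found on either strand in 83.3% of the 18 and in 41.1% of all 27025 gene symbols with a promoter. TTTGAA was found in 72.2% against 20.2%, and both in 66.7% against 8.97%. Among all genes tested with a promoter the shares were 42.1%, 15% and 7.23%. These are descriptions of letters, not of binding. The DNA replication list, with 1 call, had CCAAT in 75% and TTTGAA in 18.8% of 16 promoters. The p53 target genes, which were lower, had CCAAT in 69.2% and TTTGAA in 23.1% of 13, so a high CCAAT share was not found in the mitosis list alone. Neuronal genes had 41.2% and 17.6% of 17. The sequences from 150 bases before to 30 bases from the start of 5 called genes are shown 5′ to 3′ on the gene's strand. CCAAT (or its reverse complement ATTGG) and TTTGAA (or TTCAAA) are in capitals, to show stretches with many boxes, with few and with none. These stretches are shorter than the promoters used for the shares.
Ccnb1, chr13:100786457-100786636, minus strand: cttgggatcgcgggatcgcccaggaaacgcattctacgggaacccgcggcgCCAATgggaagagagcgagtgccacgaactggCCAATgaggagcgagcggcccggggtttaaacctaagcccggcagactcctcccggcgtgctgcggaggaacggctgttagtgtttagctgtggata
Top2a, chr11:99024160-99024339, minus strand: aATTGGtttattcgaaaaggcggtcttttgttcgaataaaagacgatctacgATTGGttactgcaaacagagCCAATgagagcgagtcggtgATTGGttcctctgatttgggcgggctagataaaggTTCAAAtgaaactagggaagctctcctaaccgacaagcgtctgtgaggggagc
Ube2c, chr2:164769779-164769958, plus strand: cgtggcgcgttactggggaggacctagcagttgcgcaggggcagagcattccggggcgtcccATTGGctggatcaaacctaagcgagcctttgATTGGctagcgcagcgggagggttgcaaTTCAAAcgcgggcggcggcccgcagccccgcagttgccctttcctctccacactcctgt
Cdca8, chr4:124936888-124937067, minus strand: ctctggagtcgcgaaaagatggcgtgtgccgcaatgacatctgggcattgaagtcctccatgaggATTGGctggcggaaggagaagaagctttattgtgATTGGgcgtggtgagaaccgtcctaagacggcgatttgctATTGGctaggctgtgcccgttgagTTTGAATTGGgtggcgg
Ndc80, chr17:71526828-71527007, minus strand: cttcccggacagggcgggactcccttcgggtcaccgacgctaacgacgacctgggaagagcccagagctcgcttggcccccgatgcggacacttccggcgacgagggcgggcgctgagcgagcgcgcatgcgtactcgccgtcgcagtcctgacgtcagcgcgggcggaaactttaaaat
Top2a and Cdca8, which encodes a subunit of the chromosomal passenger complex, each held 4 CCAAT boxes and 1 TTTGAA in this stretch, and in Cdca8 the last CCAAT box overlaps the TTTGAA. Ube2c and Cenpf, whose sequence is not shown, held 2 and 1, and Ccnb1 2 and none. Ndc80, a kinetochore gene that was also called, held neither in this stretch. Over the longer promoters used for the shares, CCAAT was found in 5 of the 6 called genes, TTTGAA in 5 and both in 4. Ndc80 therefore holds a TTTGAA outside the stretch shown. Cdca8 was at 3.01, 3.14 and 2.79 in the tissue against -0.09 and 0.54, a difference of 2.76 ± 0.78 (adjusted p = 0.038).

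Targets of the tumour suppressor p53 were lower in the tissue. Of 18 tested genes 11 were lower and none higher, with a median of -2.83. Fas, a death receptor, was at -2.75, -1.25 and -3.20 in the tissue against 3.55 and 3.82 in astrocytes, a difference of -6.09 ± 0.59 (adjusted p = 9.9e-04 in limma). Another death receptor, Tnfrsf10b, was at -3.52, -2.49 and -3.29 against 0.93 and 3.20. Ccng1, cyclin G1, was at -0.23, -0.12 and 0.05 against 3.48 and 4.80, a difference of -4.24 ± 0.47, and the antiproliferative gene Btg2 at -1.30, -1.14 and -1.50 against 3.12 and 2.62. Eda2r was at least 9.38-fold lower. The cell cycle inhibitor Cdkn1a was at 0.72, 2.10 and 0.15 against 3.32 and 5.53 and did not pass (adjusted p = 0.053), and Mdm2, the ligase that degrades p53, did not pass either (-1.29, adjusted p = 0.075). Of the 18 genes, 7 were also lower than in neural stem cells. Against glioma cells none of 17 was lower and 1, Fas, was higher in the tissue. The list had 6 lower genes and a median of -1.83 without astrocyte array 2. Trp53 itself was at -1.74, -2.13 and -1.36 against -1.84 and -0.74, a difference of -0.45 ± 0.42 that was not called and turned to 0.10 without astrocyte array 2.

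**Figure D4:**
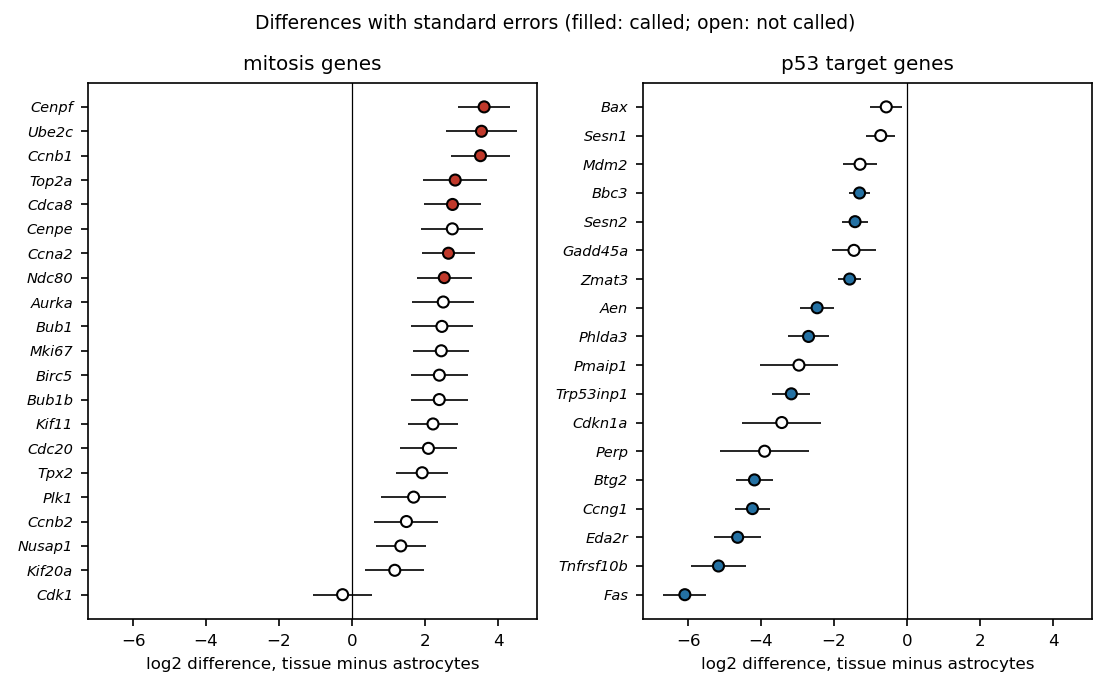
Log2 difference, tissue minus astrocytes, with its standard error from the 9-array limma fit (3 tissue and 2 astrocyte arrays compared), for 21 mitosis genes and 18 p53 target genes; filled points were called. Mitosis genes lie to the right of 0 except Cdk1, and p53 target genes all lie to the left, from -0.57 to -6.09.

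Genes altered in human glioma were called in few cases. Of 21 tested genes 2 were higher, Pdgfra and Myc, and 4 lower, with a median of -0.45. Egfr, described above, the ligand Pdgfa (-1.20) and the retinoblastoma gene Rb1 (-1.13) were among the lower genes. Rb1 was at 1.59, 1.43 and 2.13 in the tissue against 2.99 and 2.69 in astrocytes, with an adjusted p of 0.041 in limma. Pdgfa and Rb1 lost their calls without either astrocyte array, Pdgfa also without tissue array 1 or 3 and Rb1 without tissue array 1 or 2. Without astrocyte array 1 the list had 2 lower genes, and without astrocyte array 2 it had none, with a median of 0.0091. It also had 2 in the fit of 5 arrays alone, with no filter, with quantile normalization and in the unscaled deposited table. Nf1, the brake on RAS, was at 0.20, 0.03 and -0.10 against 1.27 and 0.77; its difference of -0.97 ± 0.26 had an adjusted p of 0.031 but stayed under 2-fold. It was called lower than in glioma cells and than in neural stem cells. Myc was at 0.40, 1.00 and 1.48 against -0.47 and 0.05. Its call was lost without either astrocyte array, tissue array 2 or tissue array 3, and with median centring.

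Genes switched on by RAS-MAPK signalling, the pathway that NF1 restrains, were higher in 3 of 16, with none lower and a median of 0.75. These were the ETS factors Etv4 (5.44, 4.73 and 5.85 against 1.03 and 1.93) and Etv1 (3.54, 4.73 and 5.51 against -2.2e-05 and 1.12), and the feedback inhibitor Spry1 (3.65, 3.89 and 4.56 against -1.45 and 0.25). Their differences were 3.86 ± 0.44, 4.03 ± 0.64 and 4.63 ± 0.99, with adjusted p of 0.0016, 0.005 and 0.015 in limma. Spry1 lost its call without astrocyte array 1. The fit of 5 arrays alone gave 5 calls, and the median was 1.15 without astrocyte array 2. Etv5 (1.49) and Dusp6 (1.88), other outputs of the pathway, lay above both astrocyte arrays on all tissue arrays without passing. Immediate early genes, which respond within minutes to many stimuli, went the other way, with 5 of 15 lower and 1 higher and a median of -1.61. Fos was at 0.00, 1.05 and 1.01 against 4.38 and 2.63, and Dusp1 at -0.46, -0.41 and -0.35 against 2.44 and 1.42. Fos lost its call without astrocyte array 1 or tissue array 1. The higher gene was the nuclear receptor Nr4a1 (2.76), whose call was lost without astrocyte array 2 or any 1 tissue array. Without tissue array 1 the list had 3 lower genes. Its median was -0.53 without astrocyte array 1 and -2.57 without astrocyte array 2.

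Mesenchymal genes, which mark an aggressive expression class of human glioma, were lower in the tissue than in astrocytes. Of 17 tested genes 12 were lower and none higher, with a median of -3.83. Against glioma cells 4 of the 17 were higher in the tissue and none lower, with the same counts against neural stem cells. The mean list level was 0.24, 1.53 and -0.19 in the tissue and 3.72 and 4.76 in astrocytes. It was -1.09 and -1.57 in glioma cells and -0.94 and -0.15 in neural stem cells. Thbs1, a matrix glycoprotein, was at -2.17, -2.16 and -3.02 against 4.17 and 4.06 in astrocytes, a difference of -6.56 ± 0.87 (adjusted p = 0.0026 in limma). Cd44, a hyaluronan receptor that marks the class, was at -1.72, 0.45 and -1.29 against 3.05 and 3.78, a difference of -4.27 ± 0.68. Anxa2, a membrane-binding annexin, was at 2.40, 3.35 and 1.51 against 6.77 and 7.398. The lectin Lgals3, also made by macrophages, was at 0.49, 3.44 and 0.04 against 4.98 and 6.42. The tissue lay below both astrocyte arrays for each of these 4 genes, and tissue array 2 was the highest tissue array for each. Anxa1, at -0.92, -0.86 and -2.70 against 3.12 and 6.87, lost its call without astrocyte array 2, and Lgals3 without that array or tissue array 1. Without astrocyte array 2 5 genes of the list were lower, and without tissue array 1 7 were.

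Collagen chains were lower in 8 of 23 and higher in 1, with a median of -1.77. Col8a1, of vessel and basement membranes, was not well above background on any tissue array and at least 170-fold lower. The fibrillar Col5a2 was at -4.83, -5.34 and -6.56 against 0.23 and 0.62, a difference of -6.00 ± 0.51 (adjusted p = 6.8e-04 in limma). The fibroblast collagens Col1a2 (0.97, 1.47 and -0.27 against -0.98 and 6.74) and Col3a1 (-0.81, -1.02 and -3.87 against -1.36 and 5.24) were high on astrocyte array 2 only and were not called. Without that array, or under the stricter filter, 5 collagen chains were lower. The collagen median was -0.21 without astrocyte array 2 and -3.48 without astrocyte array 1. Of 11 fibroblast and meningeal markers 2 were lower, Ogn and Col1a1, with a median of -2.81. The median turned to 0.94 without astrocyte array 2, with 1 gene lower and 1 higher. It was -4.83 without astrocyte array 1, with 5 lower, and without tissue array 3 it was -1.68. Choroid plexus and ependymal markers were lower in 4 of 10 and higher in 1, with a median of -4.18 (-2.74 with normexp). Foxj1, the master factor of motile cilia, was at -2.93, -1.11 and -1.91 against 4.16 and 3.58, a difference of -5.86 ± 0.61 (adjusted p = 0.0013). The cilium spoke gene Rsph1 was at -2.89, -2.05 and -4.13 against 3.38 and 2.61. Without tissue array 2, the array high in Ttr, 7 of the list were lower.

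The remaining lists held few calls. Hypoxia and glycolysis genes had 1 higher and 4 lower of 18, with a median of -0.75, and without astrocyte array 1, astrocyte array 2 or tissue array 1 there was 1 lower, without tissue array 3 none, and 2 with no filter or in the unscaled deposited table. The higher one was Ankrd37, a target of hypoxia-inducible factor, at 0.02, -0.69 and -0.17 against -3.70 and -3.55, and it was not called without astrocyte array 1. Vegfa (-0.21) and the carbonic anhydrase Car9 (-0.07) were not called. Cholesterol synthesis genes had 2 lower of 18 against astrocytes (4 with median centring) and a median of -0.36, but 11 of 18 lower against glioma cells and 14 against neural stem cells. Nsdhl, a late enzyme of the pathway, was at -0.44, -0.37 and -0.69 in the tissue, 0.50 and 1.31 in astrocytes, 1.46 and 1.65 in glioma cells and 1.90 and 2.35 in neural stem cells. Its call against astrocytes was lost without astrocyte array 2 or tissue array 3. Imprinted growth genes had 1 lower of 11, Plagl1, with a median of -0.42; its call was lost without either astrocyte array, tissue array 1 or tissue array 3, and median centring gave 3. Its probes disagreed, with differences of -1.62, -0.13 and 0.01 at the others. The list's median was -0.93 without astrocyte array 1, -0.74 without tissue array 1, -0.78 under the stricter filter and 0.12 with no filter. Heat shock genes had 1 of 9, the stress-induced chaperone Hspa1a (-2.54 ± 0.34), with a median of -0.36.

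Beyond the lists, the 10 largest rises among characterised genes well above background on all 5 arrays included Sox10, Hba-a2 and the following genes of neurons and the oligodendrocyte lineage. Cck, the neuropeptide cholecystokinin, was at 6.13, 4.36 and 2.83 against -4.77 and -5.51, a difference of 9.58 ± 1.01 (adjusted p = 0.0013 in limma). Cplx1, complexin 1 of the synaptic release machinery, was at 4.10, 3.14 and 3.01 against -4.57 and -5.16. Bcas1, a gene of early myelinating oligodendrocytes, was at 5.59, 6.48 and 5.96 against -1.53 and -2.61, and Omg, a myelin glycoprotein, at 3.83, 3.90 and 4.62 against -2.29 and -4.77. Cck was also far above glioma cells and neural stem cells, while Bcas1 and Omg were not called against either. The largest fall by the same rule was that of Ecrg4, a secreted peptide precursor of choroid plexus, at -4.19, 0.62 and -4.04 against 6.86 and 5.01, a difference of -8.47 ± 1.45 (adjusted p = 0.0066). Ccn5 (-7.44) and the basement membrane chain Col4a6 (-7.01) followed, each with tissue array 2 the highest of the tissue arrays at the probe used. A second Col4a6 probe differed by -1.69. The forkhead factors Foxa1 and Foxa2 were not well above background on any tissue array and at least 106-fold and 76.4-fold lower than in astrocytes.

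By position, genes of chromosome 19 lay lower in the tissue than those of any other chromosome. This count used 20883 genes measured on all 5 arrays and assigned to chromosomes 1 to 19 or X by the files (mm9). Chromosome 19 held 671 of them. Their median difference from the astrocyte mean was -0.35, against -0.06 over all these genes, and on tissue arrays 1, 2 and 3 it was -0.40, -0.29 and -0.41. The next lowest median was -0.15, on chromosome 16. On chromosome 19 66.2% of genes were below 0, against 52.6% over all chromosomes, with 119 called lower and 33 higher. Glioma cells lay at -0.49 from astrocytes on chromosome 19 and at 0.17 over all genes, while neural stem cells lay at 0.16 and 0.21. On chromosome 7, tissue array 1 alone was raised, at 0.19 against -0.11 on both other tissue arrays. Genes of a chromosome share arrays and are not independent, so these medians are descriptions with no test.

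**Figure D5:**
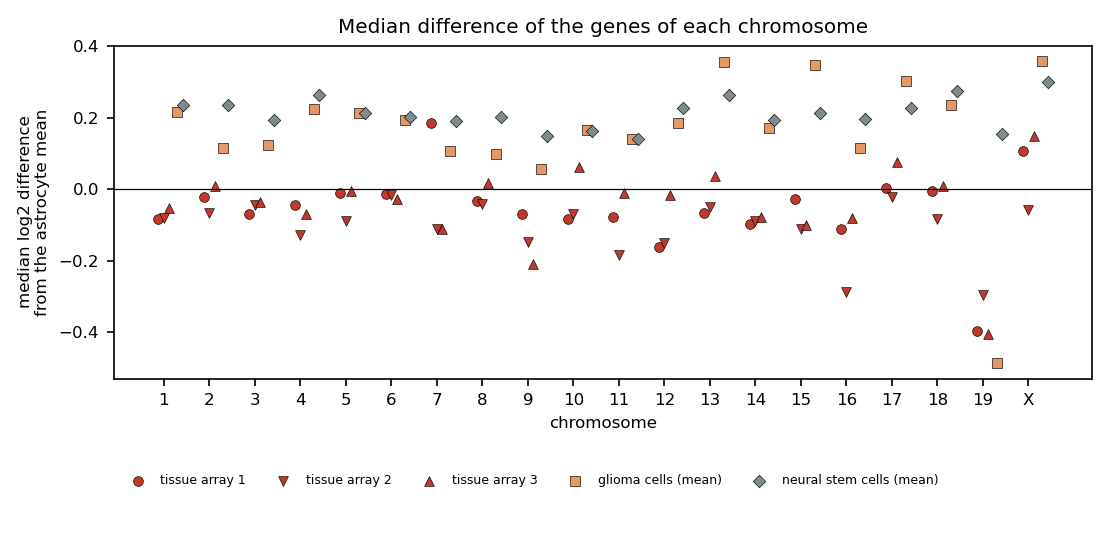
Median log2 difference from the astrocyte mean of the genes of each chromosome, for each tissue array and for the means of the glioma cells and of the neural stem cells. Chromosome 19 lies at -0.29 to -0.41 on the tissue arrays and at -0.49 in glioma cells, and chromosome 7 is raised on tissue array 1 only.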

How the data were processed

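RNA of 9 samples was hybridised singly to Agilent mouse arrays. The deposited scanner files hold processed signal intensity on a linear scale, background-subtracted within arrays per the file headers, which name Feature Extraction 10.7.3.1 (tissue) and 10.7.1.1 (cells). The authors' deposited log2 table, within 0.01 of the log2 signal for at least 99.2% of probes, served as an alternative. Outlier and control spots were left out and spots of a probe averaged. Values were log2 intensity minus each array's 75th percentile over non-control spots. Of 55666 probes kept, 24002 kept the file's name and the others were named through RefSeq (GRCm38.p6); each gene used its brightest probe. limma 3.58.1 (R 4.3.3) was fitted to all 9 arrays (5 residual degrees of freedom), tested on simulated data, with Benjamini-Hochberg adjustment over all genes tested. "At least" folds set the brighter mean against the dimmer arrays' lowest signal well above background, or the probe's own where higher. Same-numbered tissue and astrocyte arrays correlated at 0.014 and 0.031 in their deviations, so numbers were not taken as pairs. The members and the 33 lists were chosen with earlier results of these data known. Named genes were Polycomb and driver genes fixed by name, the 10 largest differences and 5 largest bounds per direction, and up to 3 called members of each list and direction, or 1 where none was called; the text gives a part, and other list members were picked after their values were seen. Some genes are not reported here.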

Additional observations from a re-analysis of the deposited data

How the results depend on the processing

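Against astrocytes, 3344 genes were called with the replicate number as a block and 3305 to 5212 with 1 array left out, against 5838. Against glioma cells the counts were 2815 with the replicate block and 2213 to 3447 with 1 array left out, against 4542, and against neural stem cells 2903 and 1827 to 4618, against 4803. The other settings kept the count against astrocytes between 4218 and 6348. These were a filter on any of the 4 groups, a stricter filter, none, quantile normalization, median centring, the deposited table without scaling, a fit of the 5 arrays alone, means over probes, and normexp. The last was added after seeing the data, on median signals, because the planned version on mean signals was not run: the tissue files do not hold that column. Of 182 called genes named by the rule or held by a list, 90 kept their call with any 1 array left out, 92 lost it in at least 1 such fit and none reversed. With the replicate block 56 of them lost it. Ezh1 reversed to 0.066 with means over probes, 0.076 with normexp and 0.044 with quantile normalization, and Trp53 to 0.10 without astrocyte array 2, in a range of -1.002 to 0.10 with 1 array left out; neither was called. The cause was not tested. No slide block could be fitted. The number of arrays limits the precision.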

Other observations

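Genes of motile cilia, a group picked after its values were seen, were lower in the tissue than in astrocytes beyond the ependymal list. Of 32 tested genes with Cfap symbols 17 were called lower and none higher, with a median of -2.02. Of 13 dynein heavy chain genes (Dnah) 6 were lower, and of 7 radial spoke genes (Rsph) 5 were. Cfap52 was at -5.46, -2.47 and -7.46 in the tissue against 3.20 and 2.60 in astrocytes. It was not well above background in glioma cells (-7.25 and -7.10) or in neural stem cells (-5.48 and -7.13). Over all genes tested 13.1% were lower.

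Neuronal ion channel families, also picked after their values were seen, had calls in both directions with more of them higher. Of 74 tested potassium channel genes (Kcn) 30 were higher and 4 lower, of 13 GABA receptor subunits (Gabr) 6 and 2, of 23 calcium channel genes (Cacn) 7 and 1, and of 8 sodium channel alpha subunits 4 and 2. Of 6 Slitrk synapse organisers 5 were higher. Over all genes tested 10.8% were higher. Of 12 neuropeptide precursors 6 were higher and 6 were not called, among them Npy (2.55), Penk (5.97) and Crh (-3.66). Somatostatin (Sst) was at 4.16, 1.51 and 1.12 against -7.00 and -7.22, at least 263-fold higher, and the tachykinin precursor Tac1 at 3.92, 0.18 and 2.75 against -7.78 and -7.81, at least 268-fold higher. Tac1 lost its call without either astrocyte array. Doublecortin (Dcx), of migrating neuroblasts, was at 2.80, 1.49 and 2.51 in the tissue and not well above background in astrocytes, but also at 1.27 and 2.73 in glioma cells.

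Gli1, a read-out of the Hedgehog pathway, was at -3.56, -3.93 and -5.64 against 1.32 and 1.67 in astrocytes, a difference of -5.88 ± 0.63 (adjusted p = 0.0014 in limma). It was at -4.18 and -4.97 in glioma cells and at -3.77 and -4.62 in neural stem cells. The Wnt read-out Axin2 differed from astrocytes by -7.15 at its brightest probe and by -1.28 at the other, which was well above background on all tissue arrays.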
